A study of Mus musculus with 15 samples.

Results

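The 7 genes described here encode the machinery that holds, carries and cuts the sterol regulatory element binding proteins (SREBPs) in the liver. They are Srebf1 and Srebf2, the SREBP genes themselves, Scap, Insig1 and Insig2, which decide whether the precursors leave the endoplasmic reticulum (ER), and Mbtps1 and Mbtps2, the proteases that release them. They were chosen by name from a table of 24965 genes that the authors deposited. Each of the 7 symbols stood on 1 row, and all 7 genes were among the 13335 with an adjusted p.

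Liver RNA was sequenced from male C57BL/6J mice, 9 weeks old, in which both Gata4 alleles were floxed, in controls as well. The groups were 4 fasted Gata4LKO (AAV8-Tbg-Cre), 4 fasted control (empty AAV8), 3 refed Gata4LKO and 4 refed control mice. The virus had been given at 8 weeks of age, and livers were taken 7 days later, after a 12 h fast or after a 12 h fast and 12 h of refeeding with a high sucrose diet (69% sucrose, 10% fat). The Tbg promoter directs Cre to hepatocytes, so other liver cells keep the floxed alleles, and since control mice received a virus without Cre, the presence of Cre cannot be told apart from the loss of Gata4. Titles of one group begin with the same number, which the labels do not explain, so a shared cage or litter cannot be told apart from the group either.

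SREBPs are made as membrane proteins of the ER, bound to SCAP, an escort that senses cholesterol. When sterols are plentiful, INSIG proteins hold SCAP in the ER; when sterols run low, SCAP carries the SREBP to the Golgi, where site-1 protease (Mbtps1) and then site-2 protease (Mbtps2) free the part that enters the nucleus. SREBP2 mainly activates genes of cholesterol synthesis and uptake, and SREBP1c, the main liver form from Srebf1, genes of fatty acid synthesis. Insig1 and the SREBP genes are themselves targets of SREBPs, and in liver Srebf1 also answers to insulin and to the oxysterol receptor LXR.

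The table gives 1 comparison and no values per liver. Its log2 fold changes, called log2 ratios below, are read here as fasted Gata4LKO over fasted control livers, a reading that rests on genes with 1 read in all and on the name of the deposited result. Those genes would equally allow refed over fasted control livers, and the name of the result decided between these. Refed livers entered the authors' model but are not compared here. Size factors of the 15 libraries ran from 0.912 to 1.11, and all genes' mean normalized counts came to 1.80e+07 in sum. For Gata4 itself the authors' deposited table gave a log2 ratio of 0.31 (SE 0.15) and an adjusted p of 0.361 (DESeq2 Wald test). The count covers the whole gene, and the labels do not name the floxed exons, so it does not test the deletion; groups are therefore named by their labels.

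Promoter sequences are shown for the 3 members that passed the test, because motifs that SREBPs and their partners are known to bind lie close to their transcript starts. They are from RefSeq (GRCm38.p6), 5′ to 3′ on the gene's strand, and end before the first annotated exon base or at the transcript start. The Srebf1 stretch is chr11:60210472-60210721 (minus strand), before the third and most downstream of 3 listed starts. The Srebf2 stretch is chr15:82147019-82147180 and the Insig1 stretch chr5:28071162-28071362 (both plus strand). Capitals mark matches, on either strand, to the core of the sterol regulatory element (TCACNC), its longer form TCACNCCA, the CCAAT box of the factor NF-Y (CCAAT), the E-box (CACGTG) and a relaxed LXR-type direct repeat (TNACCNNNNNTNACC), where N is any base.
Srebf1: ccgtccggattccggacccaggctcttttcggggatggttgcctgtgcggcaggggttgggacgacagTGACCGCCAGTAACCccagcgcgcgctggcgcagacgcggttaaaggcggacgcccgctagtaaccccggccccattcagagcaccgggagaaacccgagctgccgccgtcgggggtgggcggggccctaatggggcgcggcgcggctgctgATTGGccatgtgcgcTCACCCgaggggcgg
Srebf2: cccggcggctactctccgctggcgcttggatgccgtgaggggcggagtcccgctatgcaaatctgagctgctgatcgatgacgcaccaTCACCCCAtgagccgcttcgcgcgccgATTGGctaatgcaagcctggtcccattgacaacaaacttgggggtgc
Insig1: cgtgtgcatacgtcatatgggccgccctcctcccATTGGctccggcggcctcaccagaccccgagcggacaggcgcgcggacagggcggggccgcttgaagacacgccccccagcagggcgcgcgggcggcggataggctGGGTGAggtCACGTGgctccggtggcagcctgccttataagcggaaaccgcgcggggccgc

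Each of these 3 stretches held an SRE core and a CCAAT box. Among the 12 windows of 250 bases listed for the 7 members, these 3 were the only ones with both, a pairing noted after the sequences were seen. The first Srebf1 window held a CCAAT box without an SRE core, and the second held neither. For Srebf1 the pairing thus depends on the start shown. Of 32851 such windows in the RefSeq table, 12.5% held both, 37.6% an SRE core and 33.8% a CCAAT box. By gene, over any listed window, 14.3% of all genes and 3 of the 7 members held both. Of the lists described below, SREBP2 targets had 43.8% (7 of 16 genes with a window) and SREBP1 targets 31.2% (5 of 16). Factors upstream of Srebf1 had 27.3% (3 of 11) and sterol signals 14.3% (1 of 7). Of the lists that gave no call, ER exit had 25.0% (3 of 12). ER degradation and site-1 protease substrates had 28.6% each (2 of 7). Nuclear SREBP had 10.0% (1 of 10) and insulin signalling 7.69% (1 of 13). The pairing thus also stood in genes that were not called, and whether its share differs between lists was not tested. The longer match TCACNCCA, which contains the core, stood only in the Srebf2 window among the 12, and in 3.67% of all windows. The direct repeat stood only in the third Srebf1 window, at positions -182 to -168 from the start, and in 0.621% of all windows. Insig1 had an E-box at positions -101 to -96 from its start, and the second Scap window had one too, against 6.02% of all windows. The letters of the GATA motif (NGATAN) were found in the windows of Insig1, the second start of Insig2 and the second start of Srebf1, and in 53.4% of all windows. Matches are descriptions of letters, and a window without one says nothing of the factor.

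**Figure D1:**
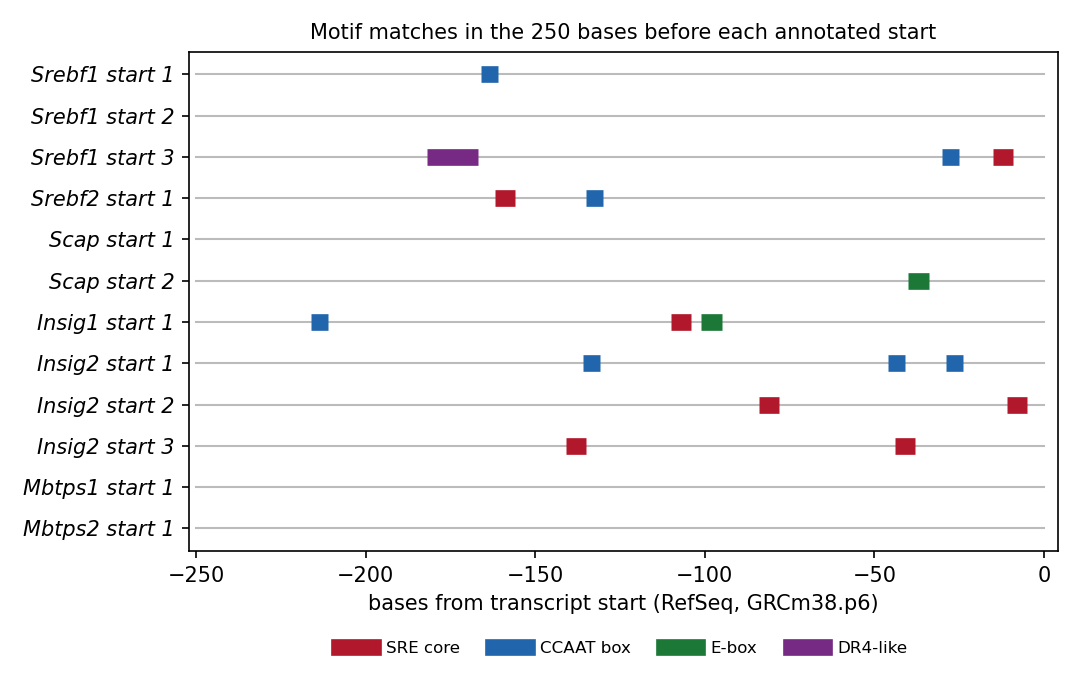
Motif matches in the 250 bases before each RefSeq start of the 7 members (x axis, bases from the start; one line per start, numbered from the most upstream). The SRE core and the CCAAT box occur together in the third Srebf1 window, the Srebf2 window and the Insig1 window, while the second Srebf1 start, Mbtps1, Mbtps2 and the first Scap start have none of the 4 motifs drawn.

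Of the 7 SREBP regulators, 3 fell in fasted Gata4LKO livers relative to fasted controls: both SREBP genes, Srebf1 and Srebf2, and the retention factor Insig1. A gene is called with an adjusted p under 0.05 in the authors' DESeq2 Wald test, Benjamini-Hochberg adjusted over all tested genes. The 3 calls are 42.9% of the members, against 2.19% of all 13335 tested genes called in either direction and 1.60% called lower. None of the members was called higher, against 0.585% of tested genes. The members' median log2 fold change was -0.04, beside 0.01 for all tested genes, since the other 4 members lay close to 0. The calls are sensitive to how the Wald statistic is read. With a t distribution of 11 residual degrees of freedom in place of the normal, 0 members were called. Over all genes that setting gave 38 calls in place of 292.

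**Figure D2:**
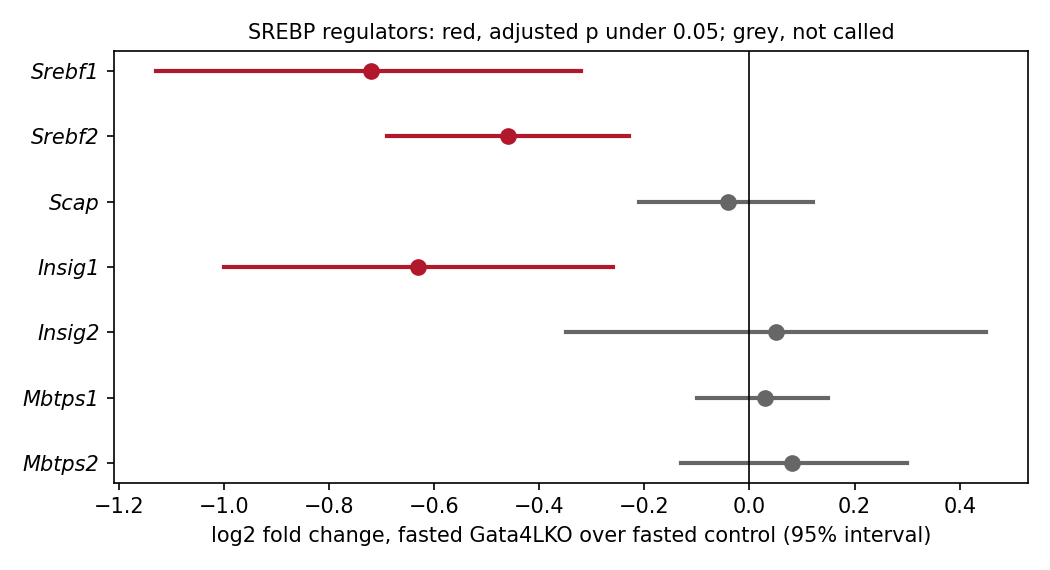
Log2 fold change of each member, fasted Gata4LKO over fasted control (points), with its 95% interval (lines) from the authors' deposited standard errors. The intervals of Srebf1, Srebf2 and Insig1 lie wholly below 0, and those of Scap, Insig2, Mbtps1 and Mbtps2 cross it.

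Srebf1 (ENSMUSG00000020538, chromosome 11, 60199089 to 60222581, mm10, minus strand), the gene of SREBP1a and SREBP1c, had the largest change of the members. In the authors' deposited table it had a mean normalized count of 3915.7 over the 15 libraries and a log2 ratio of -0.72 (SE 0.21), with an adjusted p of 0.0285 (DESeq2 Wald test). That is 0.607 of the control level, with a 95% interval from 0.458 to 0.803, by the authors' deposited table. SREBP1a and SREBP1c start from different first exons of this gene, which a count summed over the gene cannot separate. Counting also the genes without an adjusted p as tested, it would be 0.0532 (DESeq2 Wald p, Benjamini-Hochberg). Rai1, on the opposite strand, overlaps Srebf1 over 109 bases and had a mean 7.64% as high and a log2 ratio of -0.14 (SE 0.13) in the authors' deposited table.

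Srebf2 (ENSMUSG00000022463, chromosome 15, 82147181 to 82205379, plus strand), the gene of SREBP2, had the smallest p of the members. Its mean was 1019.7 normalized counts and its log2 fold change -0.46 (SE 0.12) in the authors' deposited table, with an adjusted p of 0.00685 (DESeq2 Wald test). The level was 0.726 of control, with a 95% interval from 0.620 to 0.851, by the authors' deposited table. Srebf2 stood 148th by p among all tested genes, Srebf1 227th and Insig1 271st. Gm49502, an unconfirmed transcript on the same strand that overlaps Srebf2 over 2110 bases, had 2.25% of its mean and an adjusted p of 0.0659 (DESeq2 Wald test, estimate negative) in the authors' deposited table. Mir33, the hairpin of microRNA 33 inside Srebf2, averaged 0.146 normalized counts by the authors' deposited table and has no adjusted p.

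Both SREBP genes therefore lay lower, and the table does not separate the sizes of their falls. The log2 fold change of Srebf1 minus that of Srebf2 was -0.26, with a 95% interval from -0.89 to 0.37 and an adjusted p of 0.563 over 4 pairs of members. Because both genes were measured in the same livers and their covariance is not in the table, the interval uses the sum of the 2 standard errors, the largest error the difference can have.

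Insig1 and Insig2 encode related ER proteins that retain SCAP and also mark HMG-CoA reductase for degradation. Insig1 (ENSMUSG00000045294, chromosome 5, 28071363 to 28078662, plus strand) had a mean normalized count of 5682.0 and a log2 ratio of -0.63 (SE 0.19) in the authors' deposited table, with an adjusted p of 0.0421 (DESeq2 Wald test). Its level was 0.646 of control, with a 95% interval from 0.500 to 0.835, by the authors' deposited table. Counting also the genes without an adjusted p as tested, that of Insig1 would be 0.0784 (DESeq2 Wald p, Benjamini-Hochberg).

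Insig2 (ENSMUSG00000003721, chromosome 1, 121304353 to 121332589, minus strand) was the most abundant member and was not called. In the authors' deposited table it had a mean normalized count of 7856.9 and a log2 ratio of 0.05 (SE 0.21), with an adjusted p of 0.975 (DESeq2 Wald test). By the authors' deposited table its 95% interval spanned -0.35 to 0.45. In liver Insig2 is known for a transcript that insulin lowers, and the 3 listed starts are summed in this count. The log2 fold change of Insig1 minus that of Insig2 was -0.68, with an interval from -1.45 to 0.09 and an adjusted p of 0.171 over the 4 pairs under the widest error, so that a difference between the 2 was not established; with the estimates taken as independent the adjusted p was 0.0301.

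Scap (ENSMUSG00000032485, chromosome 9, 110333288 to 110384950, plus strand), the escort of both SREBPs, was measured with a narrow error. It had a mean normalized count of 3123.5 and a log2 ratio of -0.04 (SE 0.08) in the authors' deposited table, with an adjusted p of 0.928 (DESeq2 Wald test). The 95% interval of its level relative to control was 0.866 to 1.09, by the authors' deposited table. Insig1 minus Scap was -0.59 on the log2 scale, from -1.12 to -0.05, with an adjusted p of 0.125 over the 4 pairs under the widest error and 0.0179 with independent estimates.

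The 2 proteases were not called either. Mbtps1 (ENSMUSG00000031835, chromosome 8, 119508156 to 119558735, minus strand), a serine protease of the Golgi, had a mean normalized count of 1161.7 and a log2 ratio of 0.03 (SE 0.06) in the authors' deposited table, with an adjusted p of 0.947 (DESeq2 Wald test). Mbtps2 (ENSMUSG00000046873, chromosome X, 157535371 to 157598715, minus strand), a membrane metalloprotease, had a mean normalized count of 253.2 and a log2 ratio of 0.08 (SE 0.11) in the authors' deposited table, with an adjusted p of 0.878 (DESeq2 Wald test). The intervals of the level relative to control were 0.933 to 1.11 for Mbtps1 and 0.916 to 1.23 for Mbtps2, by the authors' deposited table. Mbtps1 minus Mbtps2 was -0.06, from -0.40 to 0.28 (adjusted p 0.730 over the 4 pairs).

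How small a change could be called differed widely among the members. The smallest absolute Wald statistic among called genes was 3.27, which corresponds to a log2 change of 0.21 for Mbtps1, 0.27 for Scap, 0.35 for Mbtps2 and 0.38 for Srebf2. For Insig1, Insig2 and Srebf1 it corresponds to 0.62, 0.67 and 0.68. A change in Insig2 as large as that estimated for Insig1 would thus not have been called, whereas the same change in Scap, Mbtps1 or Mbtps2 would have been.

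The standard errors also carry the spread between livers, which the authors' model estimates over all groups. As an approximation for 4 livers a group, the deposited standard errors correspond to coefficients of variation between livers of 20.2% for Srebf1, 20.1% for Insig2 and 18.5% for Insig1. The values were 11% for Srebf2, 8.53% for Mbtps2, 8.05% for Scap and 5.51% for Mbtps1. Among the 2384 tested genes with a mean of at least 1000, 94.9% had a smaller standard error than Srebf1, 94.6% than Insig2 and 93.3% than Insig1. For Srebf2 the share was 77.3%, while 49.2% had a smaller one than Scap and 16.3% than Mbtps1. Srebf1, Srebf2, Insig1 and Insig2 thus had larger standard errors than most genes with a mean of at least 1000, and the escort and site-1 protease did not.

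**Figure D3:**
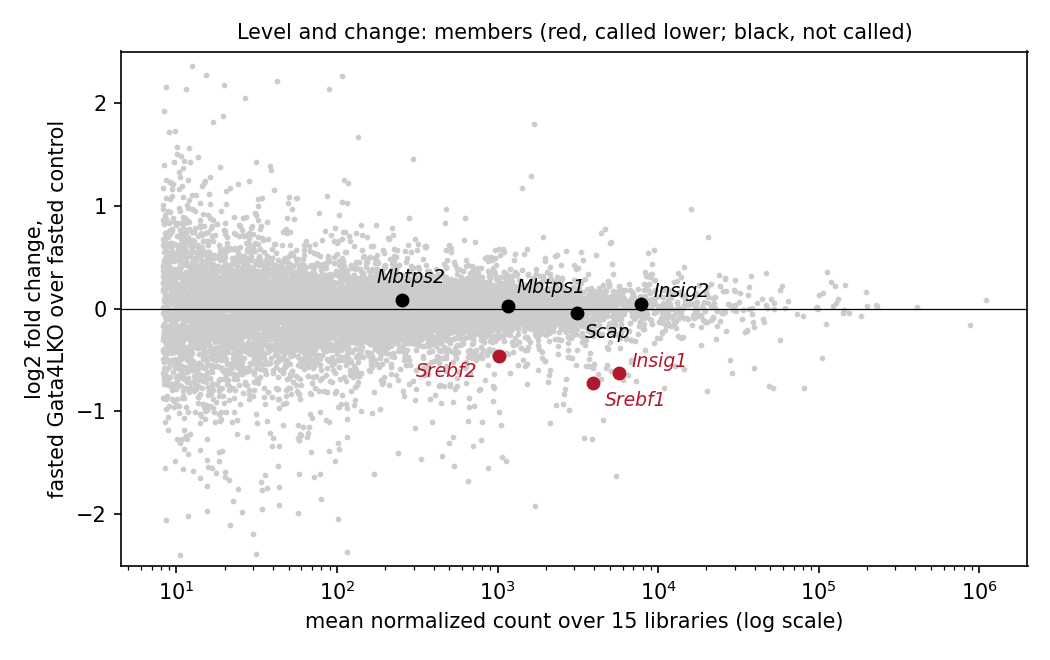
Log2 fold change, fasted Gata4LKO over fasted control (y axis), against the mean normalized count over the 15 libraries (x axis, log scale) for all tested genes (pale points, of which 16 lie beyond the axis) and the 7 members. Srebf1, Srebf2 and Insig1 (red) lie at -0.72, -0.46 and -0.63, and the other 4 members (black) between -0.04 and 0.08.

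Levels per kilobase of merged exons can be set side by side between genes, as averages over fasted and refed livers of both genotypes. They were 2262.3 normalized counts per kilobase for Insig2 and 1837.1 for Insig1, then 695.0 for Srebf1 and 419.7 for Scap. Srebf2 had 141.9 normalized counts per kilobase, Mbtps1 110.2 and Mbtps2 25.1. The 2 retention factors were thus the most abundant transcripts of the set per length and site-2 protease the least. The table holds no spread of these levels over livers, so neighbours in this order cannot be told apart by a test, and merged exons that include rare transcripts lower the value of a gene.

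Downstream, 14 of 24 listed SREBP2 target genes fell (1.60% over all tested genes), 0 rose and 10 did not pass. The median log2 fold change was -0.59 over the list and 0.01 over all tested genes. The 3 with the smallest p were Msmo1, an enzyme of sterol demethylation, Stard4, a sterol carrier, and Fdps, which makes farnesyl diphosphate. By the authors' deposited table their log2 ratios were -1.26 (SE 0.20), -0.71 (SE 0.12) and -1.46 (SE 0.24). The log2 fold changes of the 24 targets ran from -1.46 to 0.04, and 23 were negative. That range holds Srebf1, Srebf2 and Insig1 but also the uncalled Scap (-0.04) and Mbtps1 (0.03). A range this wide cannot tell members apart by their likeness to the targets. Whether the members fell as targets of SREBPs was not tested. With the t distribution, 4 of the 24 were called lower, when 31 genes in all were called lower in place of 214.

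Of 17 tested SREBP1 target genes 4 fell (1.60% over all tested genes), 0 rose and 13 did not pass. Their median log2 fold change was -0.18. Thrsp, a regulator of lipogenesis, had a log2 fold change of -0.80 (SE 0.17), the fatty acid synthase gene Fasn -0.77 (SE 0.18) and Mid1ip1, which activates acetyl-CoA carboxylase, -0.65 (SE 0.18) in the authors' deposited table. With the t distribution 0 were called (38 over all genes). Whether the shares called differ between the SREBP2 and SREBP1 target lists was not tested.

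The 13 listed transcription factors upstream of Srebf1 had a median log2 fold change of 0.04. Of these, 1 fell (1.60% over all tested genes), 0 rose and 12 did not pass. It was Bhlhe40, a clock-linked repressor, at -0.99 (SE 0.15) with an adjusted p of 8.98e-09 (DESeq2 Wald test) in the authors' deposited table. Usf1 and Nfyb, which bind the E-box and the CCAAT box, had log2 ratios of -0.17 (SE 0.10) and 0.18 (SE 0.14) by the authors' deposited table, neither called. The LXR alpha gene Nr1h3, named after its value was seen, had a log2 ratio of 0.04 (SE 0.07) by the authors' deposited table. Among 14 genes of insulin and mTORC1 signalling 0 were called by the DESeq2 Wald test (2.19% over all tested genes). In the same test 0 had an unadjusted p under 0.05, which 11.4% of all tested genes had. Rheb, Akt2 and Irs1 came closest, at 0.13 (SE 0.07), -0.08 (SE 0.05) and 0.22 (SE 0.16) in the authors' deposited table.

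The 9 tested genes that set ER cholesterol or oxysterols had a median log2 fold change of -0.05. Of these, 1 fell (1.60% over all tested genes), 0 rose and 8 did not pass. It was Soat2, which esterifies cholesterol in hepatocytes, at -0.56 (SE 0.12) with an adjusted p of 0.000793 (DESeq2 Wald test) in the authors' deposited table. The lysosomal cholesterol exporters Npc1 and Npc2 had log2 ratios of -0.40 (SE 0.13) and -0.13 (SE 0.10) by the authors' deposited table, neither past the threshold. With the t distribution 0 genes of this list were called (38 over all genes).

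The genes that move, degrade or switch off SREBPs gave no call by the DESeq2 Wald test, where 2.19% of all tested genes were called. Lists this short would often hold no call at that share. Of 12 genes of ER exit 0 were called and 0 had an unadjusted p under 0.05, with estimates from -0.06 to 0.17; the COPII genes Sec24d and Sec24c had 0.17 (SE 0.14) and -0.06 (SE 0.08), and Paqr3, a Golgi anchor of SCAP, 0.12 (SE 0.14) in the authors' deposited table. Of 14 genes of ER degradation 0 were called and 2 had an unadjusted p under 0.05 (11.4% over all tested genes), Ufd1 at 0.25 (SE 0.09) and Vcp at 0.15 (SE 0.07), while the ligase gene Rnf145 had 0.25 (SE 0.14) in the authors' deposited table. Of 10 genes acting on nuclear SREBP 0 were called and 2 had an unadjusted p under 0.05, against the same 11.4%, the kinase gene Gsk3b at 0.26 (SE 0.12) and the deacetylase gene Sirt1 at -0.26 (SE 0.12), beside Cdk8 at 0.19 (SE 0.10) in the authors' deposited table.

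Other substrates of site-1 protease were not called either. Of 8 tested, 0 were called by the DESeq2 Wald test (2.19% over all tested genes). In the same test 2 had an unadjusted p under 0.05 (11.4% over all tested genes). These were Atp6ap2 at 0.21 (SE 0.08) and the ER stress sensor gene Atf6 at 0.23 (SE 0.10) in the authors' deposited table. Creb3l1 was next, at -0.92 (SE 0.49) with a mean of 13.6 normalized counts in the authors' deposited table. With the t distribution (38 calls over all genes), 0 were called in the lists of ER exit, ER degradation, nuclear SREBP, site-1 protease substrates and insulin signalling.

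**Figure D4:**
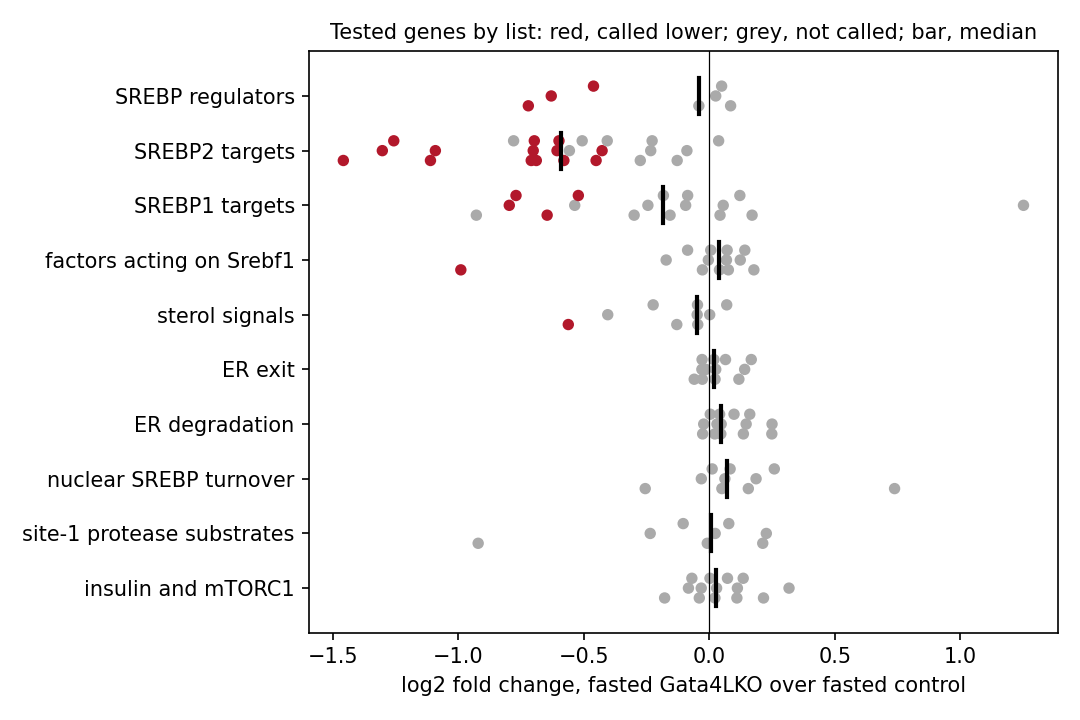
Log2 fold change, fasted Gata4LKO over fasted control (x axis), of each tested gene (points) in the SREBP regulators and the 9 lists around them; red points were called lower, and bars are medians. SREBP2 targets have their median at -0.59 and SREBP1 targets at -0.18, while the other lists have medians between -0.05 and 0.07.

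The liver label was checked against cell type markers. Hepatocyte markers had means from 30568.8 to 1107247.3 normalized counts. By the DESeq2 Wald test 0 of 6 were called (2.19% over all tested genes). The same test gave 2 an unadjusted p under 0.05, which 11.4% of all tested genes had. Kupffer cell markers had means from 49.1 to 565.1, all 6 estimates negative, a median log2 fold change of -0.28, 0 called and 1 at an unadjusted p under 0.05. Endothelial, stellate and cholangiocyte markers had 0 called, with 2, 0 and 0 at an unadjusted p under 0.05 and medians of 0.20, 0.11 and 0.20. Lymphocyte markers had means of at most 8.44 normalized counts, with 0 of 1 tested called, and the pancreas gene Cela1 was not called. Of the adipose markers only Cfd was tested; it was called higher, at 3.20 (SE 0.96) with a mean of 9.36 normalized counts in the authors' deposited table, and the summed means of the 4 adipose markers came to 12.5. The part of other cells in the falls of Srebf1, Srebf2 and Insig1 was not tested, and in bulk liver fewer cells of a type and less RNA per cell cannot be told apart.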

How the data were processed

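RNA of 15 livers was measured. Per the labels' protocols, TRIzol and RNeasy columns and a stranded KAPA kit were used. FastQC, STAR 2.6.0c and DESeq2 were used with mm10, per the submitters' processing notes; how reads were counted, with which strand setting and annotation, is not stated in the labels. Per the file headers, the deposited table holds a mean of counts over size factors (an averaged signal, pooled by the authors), the log2 fold change, its standard error, the Wald score, and p-values deposited with and without adjustment.

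The compared groups were worked out from 166 genes with 1 read in 1 library. Their log2 fold changes fell into 4 sets, of 4, 4, 4 and 3 libraries. Of 864 readings of the authors' model, 2 gave the deposited values within 1e-06, and the closest other differed by 2.64e-05. Both are interaction models with fasted control livers as reference: fasted Gata4LKO over fasted control, or refed control over fasted control. The first was chosen since the file carries the name genotype, and every direction rests on it.

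Nothing was refitted. Each p-value sets an estimate against its standard error, and the model took the spread between livers over all 15 libraries, refed ones included. The call threshold, over 13335 genes with an adjusted p, was 0.05; 11605 more had a p alone, and the lowest tested mean was 8.20. Coordinates and exon lengths are from GENCODE M21 (mm10), which held 99.9% of the IDs, and promoters from RefSeq (GRCm38.p6). Approximate coefficients of variation came from the squared standard error, on the natural log scale, for 4 livers a group less the counting part. Members and lists were chosen with earlier results of these data known. Named genes were the members, Gata4, and the 3 of smallest p in each of 9 lists. Adjusted p and the pair comparison were tested on simulated data (Python 3.11.15, scipy 1.17.1). Alternatives were the genes adjusted over, the threshold, the distribution of the Wald statistic, the centre of the fold changes and Holm adjustment.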

Additional observations from a re-analysis of the deposited data

How the results depend on the processing

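No paired analysis was possible because the comparison came from a table of results without single livers, which also kept replicates from being left out and other normalizations from being run. Of these alternatives, only setting the median of genes with a mean of at least 100 to 0 altered members' estimates, by 0.012. No member's estimate changed sign under it, and Mbtps1 went from 0.03 to 0.01. The other alternatives left estimates as they were, and none altered a pair difference, so they do not test signs. Over all alternatives, 180 of 202 comparisons kept their side of the threshold or their count within 1.5 times. That total includes uncalled members, and counts of genes called higher that were 0 throughout. Of the 3 calls, 0 remained with the t distribution, where Srebf2 had an adjusted p of 0.201 (Wald statistic).

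Adjusted over every gene with a p, Srebf1 had 0.0532 and Insig1 0.0784, which leaves 1 member called lower. At a threshold of 0.01, Srebf1 (0.0285) and Insig1 (0.0421) were not called, which also leaves 1 member, and 2 SREBP1 targets were called. With a t distribution of 11 residual degrees of freedom, Srebf1 had 0.298, Srebf2 0.201 and Insig1 0.327, so that 0 members, 4 SREBP2 targets, 0 SREBP1 targets and 0 genes of sterol signals were called lower; over all genes that setting gave 38 calls in place of 292. With Holm adjustment all 3 members had 1 and 0 were called, against 75 calls over all genes. Over all genes, 223 were called when adjusted over every gene with a p, 434 at a threshold of 0.1 and 167 at 0.01. Genes of sterol signals called lower numbered 2 at a threshold of 0.1 and 2 with the median of genes with a mean of at least 100 set to 0, a shift of 0.012. Taken as independent estimates, Insig1 minus Insig2 had an adjusted p of 0.0301 and Insig1 minus Scap 0.0179.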
